A study of Mus musculus with 20 samples.

Results

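The comparison asks how the effect of Cnot3 loss on messenger RNA stood on day 3 of deletion relative to day 2, in mouse embryonic stem cells (ESCs). It was made for every protein-coding gene as the KO-over-WT change of day 3 minus the KO-over-WT change of day 2, and it used 8 of the 20 RNA-seq libraries of the study. The 4 groups had 2 biological replicates each. Day 3 KO were Cnot3 conditional ESCs given 0.1 µM 4-hydroxytamoxifen (4OHT), from which total RNA was sequenced 3 days later. By the design text, day 3 WT were their DMSO controls, although their source label differs, as described below. Day 2 KO and day 2 WT were conditional ESCs given 0.1 µM 4OHT or DMSO and taken after 2 days, at 0 h of an actinomycin D time course, which is before that inhibitor of transcription could act. The 4 day 3 polysome libraries, made from RNA bound by ribosomes, served as a side check.

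The CNOT3 protein belongs to CCR4-NOT, a deadenylase complex that trims the poly(A) tails of cytoplasmic mRNAs and thereby starts their decay. In ESCs the complex is known to be needed for the undifferentiated state, and its loss is known to favour genes of the trophectoderm, the outer epithelium of the blastocyst. The transcripts that differ after a deletion can include direct targets of the complex as well as genes that respond later, and steady-state RNA levels do not separate them.

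All samples carry the strain label C57BL/6, while neither the promoter of the recombinase nor the deleted exons are stated in the sources used here. A source label of E14Tg2a ESCs is carried by the day 3 WT and polysome WT libraries, whereas every other library is labelled as Cnot3 conditional ESCs. The design text describes WT as DMSO-treated conditional cells throughout. Day, library set and this label therefore differ together between day 3 and day 2 and cannot be told apart. Within day 3, in total and polysome RNA, the label also differs between KO and WT. If the label is right, a difference between cell lines cannot be told apart from the deletion there.

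The day 3 total libraries held 27664391 and 29701009 gene counts in KO and 35170012 and 29594468 in WT, against 19009656 and 18230219 in day 2 KO and 26412230 and 28318919 in day 2 WT. The library sets also differed in composition. Replication-dependent histone transcripts, which lack a poly(A) tail, made up 0.664% to 1.18% of the counts in the day 3 total libraries and at most 0.00472% in the other libraries used. Reads aligned to several places were tallied only in the day 3 total libraries. ESC markers (Pou5f1, Sox2, Nanog, Esrrb, Zfp42, Klf4, Dppa5a and Tdgf1) stood at 114 CPM (counts scaled to library size) or more in every library. Haemoglobin transcripts were at or below 0.155 CPM. The blood cell gene Ptprc stood at 0.890 and 1.19 CPM in day 3 KO and 0.278 and 0.291 CPM in day 3 WT. It was at or below 0.0383 CPM in the day 2 libraries. Of the fibroblast genes, Dcn and Lum were at or below 0.291 CPM and Postn at or below 0.904 CPM. Col1a1 stood at 5.15 and 5.39 CPM in day 3 KO and 2.26 and 2.18 CPM in day 3 WT, against 8.57 and 6.72 CPM in day 2 KO and 2.22 and 2.72 CPM in day 2 WT, so it was higher in KO on both days. Col1a2 stood at 4.33 and 4.92 CPM in day 3 KO and 2.13 and 2.14 CPM in day 3 WT. On day 2 it stood at 1.171 and 1.165 CPM in KO and 0.6135 and 0.8224 CPM in WT. The part of blood or fibroblast cells in the results was not tested. In WT libraries alone, 11.4% of the 9752 genes with a mean log2 CPM of at least 3 differed by over 2-fold between the day 3 and the day 2 set. This held for 15.4% of such genes called in the difference between days, and for 24.1% of the 83 named genes.

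Cnot3 itself was checked first (ENSMUSG00000035632; chr7:3645268-3661109, plus strand, GRCm38). Its level was 7.16 and 7.94 CPM in day 3 KO and 46.7 and 47.0 CPM in day 3 WT, against 12.3 and 12.9 CPM in day 2 KO and 119 and 121 CPM in day 2 WT. All 4 KO libraries were thus below all 4 WT libraries, and the day 3 WT libraries were below those of day 2. KO cells held 16.1% of the WT level on day 3 and 10.5% on day 2, so the log2 change was -2.63 on day 3 and -3.25 on day 2. The difference between days was 0.62 ± 0.11 (SE, n = 2 libraries a group), with an adjusted p of 0.000683 in edgeR's quasi-likelihood test. The other 10 CCR4-NOT subunits did not pass this test for a difference between days, and their differences lay between -0.13 and 0.13.

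Across the genome the deletion effect was largely shared by both days. Of 15844 genes tested, 5015 (31.7%) rose and 5366 (33.9%) fell in KO on day 3, and 4188 (26.4%) rose and 5003 (31.6%) fell on day 2. Both days called 7828 genes, of which 3463 rose on both and 4305 fell on both. The 60 remaining genes had opposite directions, and 45 of these rose on day 3 and fell on day 2. The log2 changes of day 3 and day 2, which come from separate libraries, had a Pearson r of 0.891 and a Spearman rho of 0.892 across the 9752 genes of higher level, which are genes and not independent replicates. Across all 15844 genes tested, r was 0.717 and rho was 0.816.

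The test of the difference between days called 1017 genes (6.42%), of which 413 were higher on day 3 (2.61% of all tested) and 604 lower (3.81%), at an adjusted p under 0.05, by edgeR's quasi-likelihood test with Benjamini-Hochberg adjustment over all 15844 genes. "Higher" and "lower" here mean a KO-over-WT log2 change that was more positive or more negative on day 3. A log2 difference of 1 or more was reached by 49 higher and 54 lower ones, and the median over all genes was -0.01. The balance between directions depended on scaling: by library totals alone 77.5% of the called genes were higher, against 40.6% with TMM scaling. All 4 KO-minus-WT differences of day 3 lay above or below all 4 of day 2 in 36.6% of the genes tested (18.2% above and 18.4% below). A further 7171 genes moved the same way on both days without passing the test of the difference.

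A call of a difference covers several patterns. Of the 413 higher genes, 135 rose on both days, 109 rose on day 3 without passing on day 2, 44 rose on day 3 and fell on day 2, 73 fell on day 2 without passing on day 3, and 52 fell on both days by less on day 3. Of the 604 lower genes, 311 fell on both days by more on day 3, 117 fell on day 3 without passing on day 2, and 99 rose on both days by less on day 3. A further 62 lower genes rose on day 2 without passing on day 3, and 15 rose on day 2 but fell on day 3. Among all 7768 genes that moved the same way on both days, the day 3 change was the larger in 4390 (56.5%). The median exonic length was 5207 bases in the higher genes and 4780 in the lower genes, against 4277.5 over all genes tested, and 4.36% and 3.97% of them lay on the X chromosome against 3.53% of all. The median of the mean log2 CPM was also greater, at 4.92 in the higher and 5.97 in the lower genes, against 4.15 over all. Length and level were not separated.

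**Figure D1:**
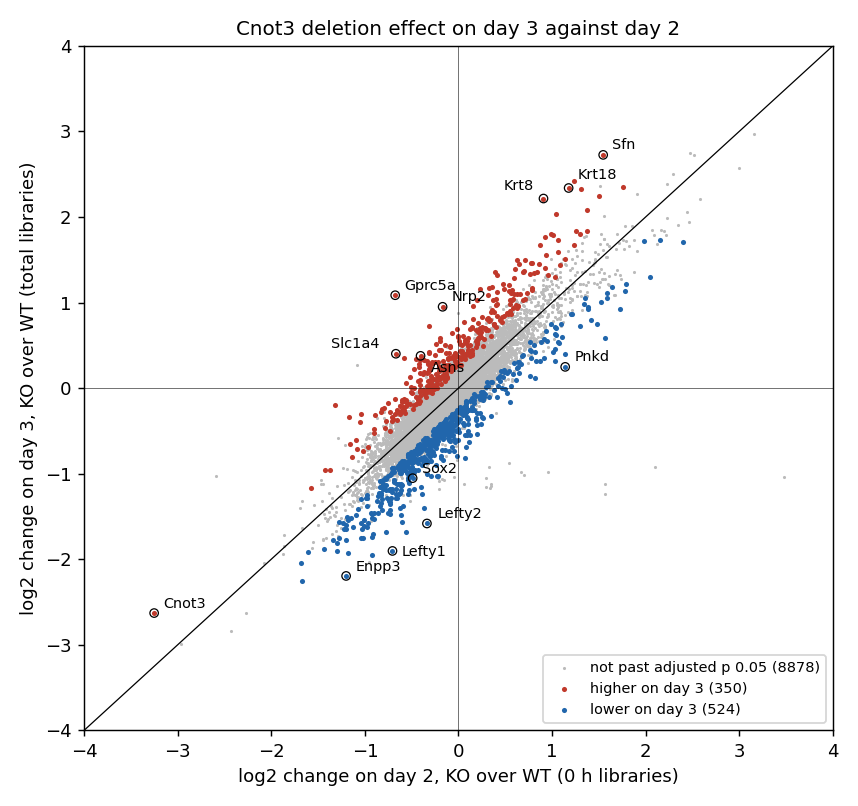
Log2 change of KO over WT on day 3 (vertical axis) against the log2 change on day 2 (horizontal axis) for the 9752 genes with a mean log2 CPM of at least 3; the diagonal marks equal changes. Red points (350 genes) were higher and blue points (524 genes) lower on day 3 at an adjusted p under 0.05, and Krt8, Krt18 and Sfn lie above the diagonal while Lefty1 and Lefty2 lie below it.

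Among the 10 highest called differences under the naming rule below (mean log2 CPM of at least 3) were Krt8, Krt18 and Sfn. These are genes of epithelia. Krt8 and Krt18 encode the keratin pair of simple epithelia, including trophectoderm. Krt8 (chr15:101996698-102004482, minus strand) had 243 and 234 CPM in day 3 KO and 49.8 and 53.1 CPM in day 3 WT, against 21.9 and 22.6 CPM in day 2 KO and 10.0 and 13.6 CPM in day 2 WT. Krt18 (chr15:102028180-102032027, plus strand) had 233 and 222 CPM in day 3 KO and 42.6 and 47.5 CPM in day 3 WT, against 38.3 and 39.0 CPM in day 2 KO and 15.6 and 18.5 CPM in day 2 WT. Both genes were above WT in every KO library of both days, and their WT levels also differed between the sets, by 4.35-fold and 2.64-fold. The log2 change of Krt8 was 2.22 on day 3 and 0.91 on day 2, a difference of 1.31 ± 0.13 (adjusted p = 6.53e-05). For Krt18 the changes were 2.34 and 1.18 on day 3 and day 2, a difference of 1.16 ± 0.10 (adjusted p = 3.17e-07). Both genes have near-identical pseudogene copies, and only the day 3 total libraries tally reads aligned to several places, so how far counting sets their levels was not tested.

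Sfn, which encodes the epithelial adaptor 14-3-3 sigma, showed the same pattern, and its WT level was 1.44-fold higher in the day 3 set. It had 172 and 164 CPM in day 3 KO and 23.9 and 27.0 CPM in day 3 WT, against 48.4 and 55.0 CPM in day 2 KO and 18.1 and 17.3 CPM in day 2 WT. Each KO library exceeded each WT library, and the day 3 KO libraries were the highest of all. Its log2 change was 2.73 on day 3 and 1.55 on day 2, and the difference was 1.18 ± 0.10 (adjusted p = 2.81e-07). Col7a1, the chain of type VII collagen of epithelial anchoring fibrils, changed by 2.33 on day 3 and 1.31 on day 2 (difference 1.01 ± 0.15). S100a6, a calcium-binding protein, changed by 2.42 and 1.23 on day 3 and day 2, and its adjusted p of 0.0115 became 0.0515 to 0.0708 when any 1 day 2 library was left out.

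Among 21 trophectoderm markers tested, 7 were higher and 1 was lower on day 3, against 2.61% higher and 3.81% lower over all genes, and the median difference was 0.51 against -0.01 over all genes. Besides Krt8, Krt18 and Krt19 (0.51), the higher genes were the claudin gene Cldn4 (0.80) and the transcription factor genes Hand1 (1.16), Gata2 (0.95) and Tead4 (0.56). Mean KO levels of Cldn4 were close, at 94.3 CPM on day 3 and 97.4 CPM on day 2. Its mean WT level was 34.6 CPM on day 3 and 62.3 CPM on day 2. Hand1 rose by 2.73 on day 3 and 1.58 on day 2 in log2 terms, and Gata2 by 2.01 and 1.06. The exception was Fgfr2, the receptor through which FGF4 acts on trophoblast, with 21.1 and 21.3 CPM in day 3 KO and 44.1 and 42.1 CPM in day 3 WT, against 32.6 and 36.1 CPM in day 2 KO and 39.1 and 40.4 CPM in day 2 WT. Its level was lowest in day 3 KO, and its difference between days was -0.81 ± 0.09 (adjusted p = 8.55e-06).

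The regulators Cdx2, Gata3 and Eomes did not pass. Cdx2 stood at 4.30 and 3.39 CPM in day 3 KO and 0.568 and 0.722 CPM in day 3 WT, against 0.291 and 0.669 CPM in day 2 KO and 0.363 and 0.150 CPM in day 2 WT. Only the day 3 KO libraries stood apart, and the difference of 1.68 ± 0.67 had an adjusted p of 0.153. Gata3 rose on both days, by 1.27 on day 3 and 1.51 on day 2 (difference -0.24 ± 0.37, adjusted p = 0.772), and Eomes passed on neither day. The summed level of the 21 markers was 1331 and 1413 CPM in day 3 KO and 663 and 706 CPM in day 3 WT, against 863 and 917 CPM in day 2 KO and 731 and 741 CPM in day 2 WT. In bulk RNA, more cells of a type and more RNA per cell cannot be told apart, and the same holds for fewer cells and less RNA. Without day 2 WT replicate 2, 4 of the 21 markers were called higher.

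Cell adhesion and junction genes, a list that shares Krt8, Krt18, Krt19 and Cldn4 with the markers above, had 7 of 23 higher and 1 lower (2.61% and 3.81% over all genes), with a median difference of 0.21. Cldn6, a claudin of early epithelia, had 53.9 and 54.0 CPM in day 3 KO and 15.6 and 15.4 CPM in day 3 WT, against 61.6 and 54.5 CPM in day 2 KO and 28.2 and 30.4 CPM in day 2 WT. KO levels of Cldn6 were close on both days, while the day 3 WT level was the lower, and the difference was 0.81 ± 0.10 (adjusted p = 1.71e-05). Cldn7 (0.66) and the plakophilin gene Pkp2 (0.37) were also higher, and Jup, encoding plakoglobin, was lower (-0.32). The adherens junction gene Cdh1 did not pass (0.03). Without day 2 WT replicate 2 the higher members came to 4.

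**Figure D2:**
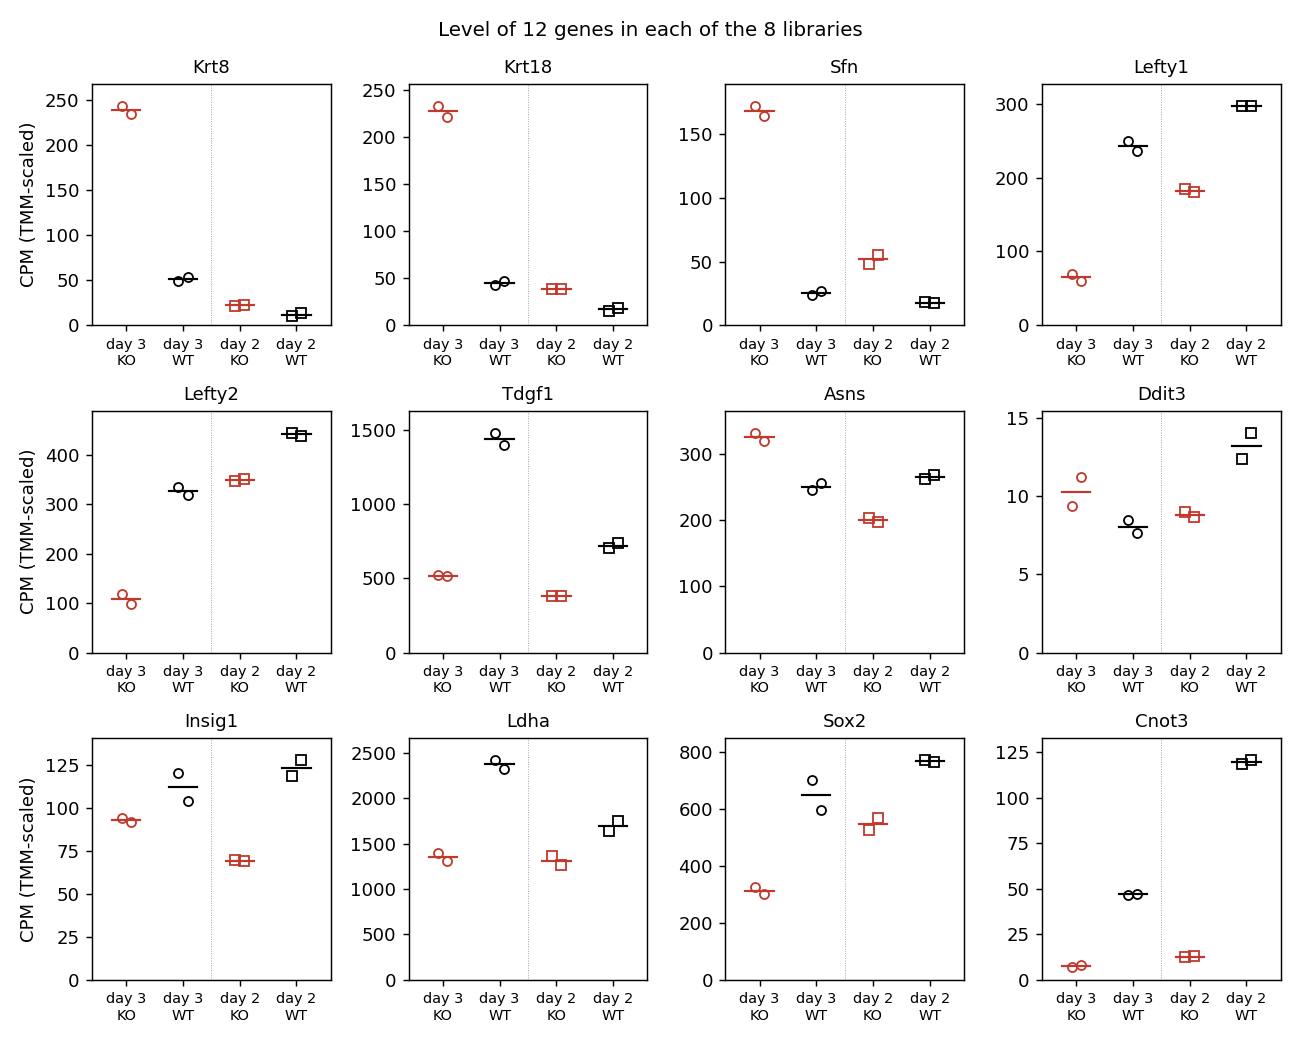
TMM-scaled CPM (vertical axes, each from 0) of 12 genes in the 8 libraries; open points are libraries and lines are group means, with KO in red and WT in black. Krt8, Krt18 and Sfn were highest in the day 3 KO libraries, Lefty1, Lefty2 and Sox2 were lowest there, and Asns was above WT on day 3 and below WT on day 2.

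Of 14 genes of bone morphogenetic protein (BMP) signalling, 3 were higher on day 3 and 0 lower, against 2.61% higher over all genes, and 5 of the 14 differences were below 0. BMP receptors activate SMAD proteins, whose best known early targets are the Id genes, inhibitors of basic helix-loop-helix factors. Id3 had 79.4 and 72.8 CPM in day 3 KO and 27.5 and 26.5 CPM in day 3 WT, against 42.2 and 46.8 CPM in day 2 KO and 28.0 and 26.3 CPM in day 2 WT. WT levels of Id3 matched closely between the sets, and KO levels were higher on day 3, with a difference of 0.78 ± 0.10 (adjusted p = 1.95e-05). Id1 rose by 1.84 on day 3 and 1.38 on day 2 (difference 0.46, adjusted p = 0.00299), and the inhibitory SMAD gene Smad6 by 1.11 and 0.57 (difference 0.54, adjusted p = 0.0292). These 3 were the called members, and the ligand Bmp4 (-0.10) and the receptor Bmpr1a (-0.01) did not pass. Without day 2 WT replicate 1, Id3 alone kept its call, with an adjusted p of 0.0505 for Id1 and 0.071 for Smad6. Smad6 also lost its call without 5 other libraries and by DESeq2 (adjusted p = 0.176).

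Among 21 immediate early genes, 4 were higher and 1 lower (2.61% and 3.81% over all genes), with a median difference of 0.15. Klf6 rose by 1.17 on day 3 and 0.32 on day 2 (difference 0.85 ± 0.09, adjusted p = 2e-06). Dusp1 (0.59), Junb (0.43) and Klf10 (0.30) were also higher, and Myc was lower (-0.37). The number called higher was 2 without day 2 WT replicate 2 and 7 by library totals, and Klf10 lost its call without that library (adjusted p = 0.0552).

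Of 19 genes of the integrated stress response tested (20 listed), 10 were higher on day 3 and 0 lower, against 2.61% higher over all genes. Members differed in pattern: some fell on both days by less on day 3, and others fell on day 2 and rose on day 3. In this response, phosphorylation of the initiation factor eIF2 favours translation of ATF4, which induces genes for amino acid synthesis and transport and for tRNA charging. ATF4 acts through a composite C/EBP-ATF element whose core can be written TGATGNAA. Of 19 listed genes with a promoter in the RefSeq table (GRCm38.p6; 250 bases before to 50 after the start), 7 held this core on either strand (36.84%), against 4.511% of 27025 genes overall. A match is a description of these letters and not a site of binding. The list was drawn up by membership in this response, so the share says nothing about the difference between days. The promoters of Asns (chr6:7693160-7693459, minus strand), Chac1 (chr2:119350992-119351291, plus strand) and Trib3 (chr2:152344011-152344310, minus strand) are shown because these genes were among those higher on day 3 and hold the core. The core is in capitals and is read on the opposite strand in Chac1 and Trib3. In Trib3 it lies after the start.
Asns: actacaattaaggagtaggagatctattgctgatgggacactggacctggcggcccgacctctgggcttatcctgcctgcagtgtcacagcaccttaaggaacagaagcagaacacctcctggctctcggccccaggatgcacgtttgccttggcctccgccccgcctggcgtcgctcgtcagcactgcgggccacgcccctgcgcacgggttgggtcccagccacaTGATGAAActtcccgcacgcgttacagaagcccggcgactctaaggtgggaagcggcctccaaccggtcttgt
Chac1: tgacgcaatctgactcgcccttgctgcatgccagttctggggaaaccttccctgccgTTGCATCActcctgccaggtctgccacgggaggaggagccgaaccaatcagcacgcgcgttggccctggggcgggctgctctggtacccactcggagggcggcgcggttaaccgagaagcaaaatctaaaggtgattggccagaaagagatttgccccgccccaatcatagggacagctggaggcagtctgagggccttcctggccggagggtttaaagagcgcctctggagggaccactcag
Trib3: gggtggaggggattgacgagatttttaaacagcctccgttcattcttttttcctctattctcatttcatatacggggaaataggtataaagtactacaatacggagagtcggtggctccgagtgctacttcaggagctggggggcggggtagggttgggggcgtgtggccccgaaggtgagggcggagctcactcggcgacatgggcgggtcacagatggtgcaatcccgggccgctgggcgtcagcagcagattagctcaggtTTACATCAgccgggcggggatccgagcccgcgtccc

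Asns encodes asparagine synthetase, a long-known ATF4 target. It had 332 and 319 CPM in day 3 KO and 246 and 256 CPM in day 3 WT, against 203 and 198 CPM in day 2 KO and 262 and 268 CPM in day 2 WT. The gene thus changed direction: both KO libraries were above WT on day 3 and below WT on day 2. Its log2 change was 0.38 on day 3 and -0.41 on day 2, and both passed. The difference was 0.78 ± 0.07 (adjusted p = 2.81e-07).

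The median difference of this list was 0.35, and DESeq2 called 6 members. Summed over the list, the level was 1328 and 1300 CPM in day 3 KO and 1503 and 1509 CPM in day 3 WT. On day 2 it was 1583 and 1570 CPM in KO and 2350 and 2358 CPM in WT. KO and WT sums were thus both lower in the day 3 set. Atf4 itself had 68.2 and 68.8 CPM in day 3 KO and 83.3 and 77.1 CPM in day 3 WT, against 81.2 and 84.6 CPM in day 2 KO and 142 and 146 CPM in day 2 WT. Atf4 fell on both days, by 0.23 on day 3 and 0.80 on day 2 on the log2 scale, so its positive difference of 0.57 ± 0.07 (adjusted p = 3.03e-05) is that of a smaller decrease. Ddit3, encoding CHOP, a factor of the terminal phase of the response, had 9.38 and 11.2 CPM in day 3 KO and 8.45 and 7.62 CPM in day 3 WT, against 8.96 and 8.64 CPM in day 2 KO and 12.4 and 14 CPM in day 2 WT. It rose by 0.36 on day 3 and fell by 0.59 on day 2. Trib3, a pseudokinase gene induced by ATF4 and CHOP, rose on day 3 (0.77) without passing on day 2 (0.06).

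The glutathione-degrading enzyme gene Chac1 (-0.53 and -1.35 on day 3 and day 2), the serine synthesis gene Psat1 (-0.31 and -0.68) and the mitochondrial folate gene Mthfd2 (-0.21 and -0.56) followed the pattern of Atf4. Over the list, 5 genes rose and 11 fell on day 3, and 1 rose and 15 fell on day 2. The shares over all genes were 31.7% and 33.9% on day 3, and 26.4% and 31.6% on day 2. Among 21 cytosolic and related aminoacyl-tRNA synthetase genes, 5 were higher (2.61% over all genes), with a median difference of 0.06. They were Aars (0.44 ± 0.06, adjusted p = 0.000117), Cars (0.35), Nars (0.25), Yars (0.24) and Iars (0.22). This count was 2 or 3 without day 3 WT replicate 1, day 3 KO replicate 1 or any 1 day 2 library, 2 by DESeq2 and 3 without the filter on low counts.

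Genes of cholesterol metabolism, which the factor SREBP2 controls, had a positive difference in all 22 members tested, against 7587 of all 15844 genes, and 9 of them passed as higher, against 2.61% of all. The median difference was 0.24, with a median log2 change of -0.02 on day 3 and -0.32 on day 2. Summed over the list, the level was 1838 and 1759 CPM in day 3 KO and 1959 and 1916 CPM in day 3 WT. On day 2 it was 2342 and 2270 CPM in KO and 3071 and 3117 CPM in WT. Here too, KO and WT sums were both lower in the day 3 set. Insig1, which holds the SREBP escort protein in the endoplasmic reticulum and is itself an SREBP target, had 94.1 and 91.5 CPM in day 3 KO and 121 and 104 CPM in day 3 WT, against 69.6 and 69.1 CPM in day 2 KO and 119 and 128 CPM in day 2 WT. KO was below WT on both days, by less on day 3, and the difference was 0.56 ± 0.09 (adjusted p = 0.000428). Cyp51, lanosterol demethylase, changed by 0.01 on day 3 and -0.51 on day 2 (difference 0.52 ± 0.07, adjusted p = 7.93e-05). The squalene synthase gene Fdft1 was higher by 0.39. The number called was 6 by DESeq2 and 4 without day 2 KO replicate 2 or without day 2 WT replicate 2.

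**Figure D3:**
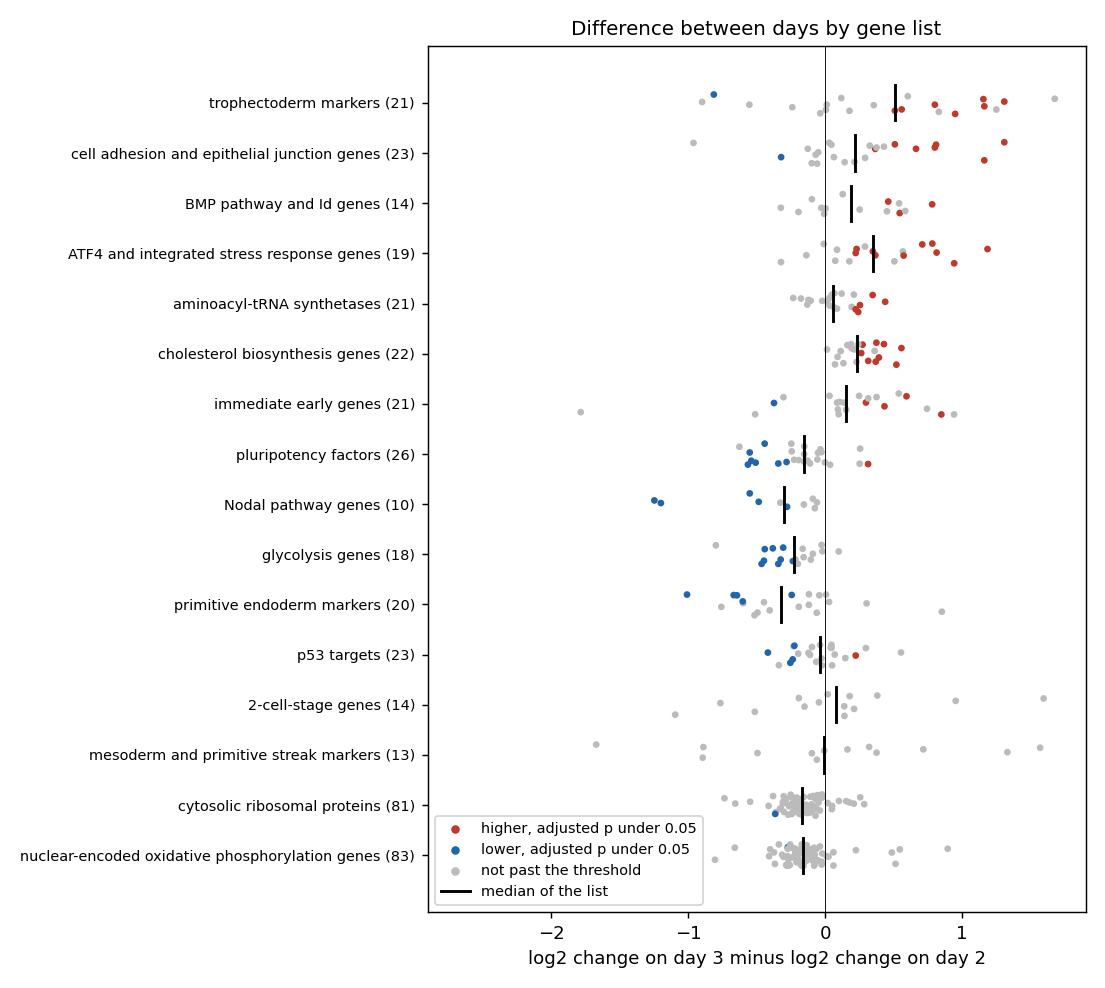
Difference between the day 3 and day 2 log2 changes (horizontal axis) for the tested members of 16 gene lists, 1 point a gene, with the number tested in brackets and a bar at the median. All 22 cholesterol genes lie to the right of 0 and all 10 Nodal pathway genes to the left.

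Outside these lists, several genes changed direction in the same sense. Gprc5a, an orphan receptor gene known to respond to retinoic acid, had 7.27 and 10.8 CPM in day 3 KO and 4.48 and 4.05 CPM in day 3 WT, against 8.09 and 7.61 CPM in day 2 KO and 13.0 and 12.1 CPM in day 2 WT. It rose by 1.09 on day 3 and fell by 0.68 on day 2, with a difference of 1.76 ± 0.22 (adjusted p = 0.000243). The neutral amino acid transporter gene Slc1a4 (0.40 on day 3 and -0.67 on day 2), the small GTPase gene Arl4c (0.72 and -0.32) and the mitochondrial PEP carboxykinase gene Pck2 (0.34 and -0.45) also rose on day 3 and fell on day 2. Nrp2, a co-receptor of semaphorins and VEGF, rose on day 3 (0.95) without passing on day 2 (-0.17). In day 3 polysomes Nrp2 (-0.54), Slc1a4 (-0.79) and Pck2 (-0.73) fell, Arl4c rose (1.56) and Gprc5a did not pass (0.56). WT levels of Gprc5a, Nrp2, Slc1a4 and Pck2 were 0.247 to 0.467 times as high in the day 3 set as in the day 2 set.

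The opposite change of direction was found in 15 genes. Under the naming rule, the 5 with the largest differences were Itm2a (-0.73), Nefh (-0.72), Gas6 (-0.68), Ank2 (-0.61) and Grhl3 (-0.58). Nefh, the heavy neurofilament subunit, had 130 and 138 CPM in day 3 KO and 143 and 157 CPM in day 3 WT, against 156 and 177 CPM in day 2 KO and 114 and 113 CPM in day 2 WT. KO was slightly below WT on day 3 and above it on day 2. Grhl3, an epithelial transcription factor gene, changed by -0.34 on day 3 and 0.25 on day 2, against the direction of the keratins. In day 3 polysomes Nefh rose (0.53), while Grhl3 (0.44), Ank2 (-0.002) and Gas6 (-0.34) did not pass. Pnkd, whose human counterpart is mutated in a paroxysmal dyskinesia, rose on both days but by 0.25 on day 3 and 1.14 on day 2 (difference -0.89 ± 0.08, adjusted p = 6.29e-07).

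The Nodal pathway held the 2 lowest called differences under the naming rule, among genes with a mean log2 CPM of at least 3. Nodal is a TGF-beta family ligand that signals in ESCs through activin receptors and the co-receptor Cripto (Tdgf1), and it induces its own secreted inhibitors Lefty1 and Lefty2. Nodal itself did not pass as changed on day 3 (0.02) and rose on day 2 (0.29), a difference of -0.28 (adjusted p = 0.0151). Tdgf1 had 523 and 514 CPM in day 3 KO and 1479 and 1399 CPM in day 3 WT, against 382 and 378 CPM in day 2 KO and 704 and 736 CPM in day 2 WT. KO held 36.0% of WT on day 3 and 52.7% on day 2 (difference -0.55 ± 0.07, adjusted p = 1.43e-05).

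The inhibitors showed the larger differences. Lefty1 (chr1:180935022-180938400, plus strand) had 70.2 and 59.7 CPM in day 3 KO and 249 and 236 CPM in day 3 WT, against 184 and 180 CPM in day 2 KO and 297 and 297 CPM in day 2 WT. Lefty2 (chr1:180893108-180899103, plus strand) had 119 and 99.1 CPM in day 3 KO and 334 and 318 CPM in day 3 WT, against 348 and 351 CPM in day 2 KO and 444 and 438 CPM in day 2 WT. Both were below WT in every KO library, and the day 3 KO libraries were the lowest of all. For Lefty1 the log2 change was -1.90 on day 3 and -0.71 on day 2 (difference -1.20 ± 0.08, adjusted p = 5.49e-08), and for Lefty2 it was -1.58 and -0.34 (difference -1.25 ± 0.09, adjusted p = 4.25e-07). Lefty1 and Lefty2 are close relatives by sequence, and the sources used here do not say how reads that match both were counted. Of the 10 pathway genes tested, 5 were lower and 0 higher, against 3.81% lower over all genes, all 10 differences were below 0, and the median was -0.30. The fifth lower gene was Skil (-0.48), a SMAD co-repressor that the pathway induces, while the receptor genes Acvr1b (-0.16) and Acvr2b (-0.09) and the effector genes Smad3 (-0.08) and Foxh1 (-0.06) did not pass.

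Pluripotency factors fell on both days, and some fell further on day 3. Over 26 genes, 23 fell and 1 rose on each day, with a median log2 change of -1.03 on day 3 and -0.70 on day 2. Of all genes tested, 33.9% fell and 31.7% rose on day 3, and 31.6% fell and 26.4% rose on day 2. Sox2, which pairs with OCT4 on ESC enhancers, had 325 and 301 CPM in day 3 KO and 702 and 597 CPM in day 3 WT, against 526 and 570 CPM in day 2 KO and 772 and 766 CPM in day 2 WT. The day 3 WT libraries of Sox2 differed more from each other than the other pairs did, and the difference between days was -0.56 ± 0.10 (adjusted p = 0.00465). Esrrb (-0.51), Fgf4 (-0.44), Tet1 (-0.54), L1td1 (-0.34), Klf4 (-0.28) and Tdgf1 were the other lower members, and Tbx3, which also marks extraembryonic endoderm, was higher (0.31).

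The core factor Pou5f1, encoding OCT4, had 207 and 201 CPM in day 3 KO and 450 and 436 CPM in day 3 WT, against 417 and 418 CPM in day 2 KO and 796 and 792 CPM in day 2 WT. KO was below WT on both days, and the difference of -0.19 ± 0.06 missed the threshold (adjusted p = 0.0782), although it passed without day 3 WT replicate 2 (adjusted p = 0.0256). Nanog fell by 0.48 on both days, and its difference of -0.0016 ± 0.06 had an adjusted p of 1.00. Over the list, 7 of 26 genes were lower and 1 higher (3.81% and 2.61% over all genes), and 13 were lower and 0 higher without day 3 WT replicate 2. Among 13 genes of FGF/ERK feedback, Etv5 (-0.51) and Dusp6 (-0.31) were lower and Dusp5 was higher (0.67). The call of Dusp6 was lost without 4 of the 8 libraries (adjusted p of 0.0645 to 0.137), by DESeq2 and by library totals. Otx2, a factor of the post-implantation epiblast, fell by 1.29 on day 3 and 0.72 on day 2 (difference -0.57 ± 0.13, adjusted p = 0.00695).

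Of 18 glycolytic genes, 8 were lower and 0 higher on day 3, against 3.81% lower over all genes, and the median difference was -0.23. Ldha, lactate dehydrogenase A, had 1397 and 1313 CPM in day 3 KO and 2425 and 2324 CPM in day 3 WT, against 1364 and 1266 CPM in day 2 KO and 1643 and 1753 CPM in day 2 WT. KO levels were close on both days and the day 3 WT level was the higher, with a difference of -0.44 ± 0.07 (adjusted p = 0.000509). Pfkl, the liver-type phosphofructokinase, changed by -0.97 on day 3 and -0.52 on day 2. Gapdh (-0.32), Tpi1 (-0.46), Aldoa (-0.31), Pkm (-0.24), Eno1 (-0.38) and the pyruvate dehydrogenase kinase gene Pdk1 (-0.34) were also lower. Several of these, Gapdh and Eno1 among them, have many processed pseudogenes, and the WT level of Eno1 was 5.06-fold higher in the day 3 set. Without day 2 WT replicate 1, and by library totals, 5 genes were lower.

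Primitive endoderm markers were lower in 5 of 20 tested (21 listed), against 3.81% of all genes, with a median difference of -0.32. Dab2 (-0.60), Amn (-1.01), Pdgfra (-0.67), Gata4 (-0.64) and Lamb1 (-0.24) passed, and the median log2 change over the list was -0.14 on day 3 and 0.26 on day 2. The summed level of the list was 1737 and 1865 CPM in day 3 KO and 2241 and 2322 CPM in day 3 WT, against 1588 and 1580 CPM in day 2 KO and 2013 and 1958 CPM in day 2 WT. These calls were fragile: the number called was 3 without day 3 WT replicate 2, 2 without day 3 KO replicate 1, 0 or 1 without any 1 day 2 library, 1 by DESeq2, 2 by library totals, and 3 with a filter of 1 CPM or with all genes fitted.

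Other named genes of higher level with the lowest differences were Aire (-1.03), A2m (-1.03), Enpp3 (-1.0), Rab3il1 (-0.98), Kirrel2 (-0.96) and Camkv (-0.91). Enpp3, an ectonucleotidase gene, had 10.2 and 10.5 CPM in day 3 KO and 49.2 and 45.7 CPM in day 3 WT, against 30.0 and 33.8 CPM in day 2 KO and 74.8 and 71.8 CPM in day 2 WT. It was lowest in day 3 KO and fell on both days. Aire, a transcriptional regulator best known from thymic epithelium, fell by 1.40 on day 3 and 0.37 on day 2, and the protease inhibitor gene A2m by 1.96 and 0.92. Rab3il1, a gene for an exchange factor of Rab GTPases, differed in sign from these, as it rose on both days, by 0.59 on day 3 and 1.57 on day 2.

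For 2 genes that reached the extremes, the libraries of the sets could not be set beside each other. Snrpf, a core spliceosomal protein gene, had 0.358 and 0.365 CPM in day 3 KO and 1.1 and 1.24 CPM in day 3 WT, against 14.2 and 15.4 CPM in day 2 KO and 22 and 21.8 CPM in day 2 WT. Eif3j1, an initiation factor gene with a near-identical paralogue, had 64.7 and 65.5 CPM in day 3 KO and 79.2 and 70.3 CPM in day 3 WT, against 0.436 and 0.463 CPM in day 2 KO and 1.13 and 1.12 CPM in day 2 WT. Each was close to 0 in 1 set only, and their differences (-1.12 and 1.12) lost the threshold without 6 and 7 of the 8 libraries.

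The polysome libraries of day 3 gave a second estimate of the KO change, which shares the day 2 libraries with the comparison above. Of 14304 genes tested there, 6159 (43.1%) passed, of which 2938 (20.5%) rose and 3221 (22.5%) fell in KO polysomes. The polysome change minus the day 2 change called 0 genes in either direction (0%) by edgeR, 1700 at an unadjusted p under 0.05, and 58 higher and 99 lower genes by DESeq2. WT polysome replicates differed by a chi-square per degree of freedom of 76.7 between them, against 10.6 for KO polysomes and 2.23 to 9.12 for the other groups. The median SE of the difference was 0.222 with polysomes and 0.0926 with the day 3 total libraries. Without polysome WT replicate 1 the count became 1912 higher and 3276 lower, and without polysome WT replicate 2 it became 113 higher and 81 lower.

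Set beside the day 2 change of the same polysome fit, the median difference was 1.35 for trophectoderm markers and -0.33 for Nodal pathway genes, against 0.03 over all genes. The median log2 change of the trophectoderm markers was 1.44 in day 3 total RNA and 2.59 in day 3 polysomes, against 0.91 on day 2. For the Nodal pathway genes it was -0.55 in total RNA and -0.82 in polysomes, against -0.39 on day 2. Krt8 changed by 3.30, Sfn by 3.23, Lefty1 by -3.02 and Lefty2 by -2.44 in polysomes, each further from 0 than in day 3 total RNA. Col7a1 (1.35), Cldn4 (0.82), Cldn6 (1.59) and S100a6 (2.25) were closer to 0 in polysomes than in day 3 total RNA. Pluripotency factors (-1.02 in polysomes and -1.03 in total RNA, against -0.70 on day 2) and glycolytic genes (-0.66 and -0.70, against -0.37 on day 2) had median differences of -0.28 and -0.30 from day 2 within the polysome fit.

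For ATF4-related genes the median polysome change minus day 2 change was 0.02, and for cholesterol genes it was -0.25, against median differences of 0.35 and 0.24 with day 3 total RNA. Asns changed by 0.03 in polysomes, Atf4 by -0.83, Ddit3 by -0.67, Slc1a4 by -0.79, Insig1 by -1.30 and Cyp51 by -1.07. Within the polysome fit, the difference from day 2 was 0.47 ± 0.33 for Asns, 0.00 ± 0.25 for Atf4, -0.05 ± 0.26 for Ddit3 and -0.09 ± 0.27 for Slc1a4, and -0.44 ± 0.21 for Insig1 and -0.53 ± 0.29 for Cyp51, and none of these passed in edgeR's quasi-likelihood test (± SE). Polysome association, RNA level and library composition differ between these libraries as well as the day. In histone share, the polysome libraries (at most 0.00472%) were close to the day 2 libraries, whereas the day 3 total libraries (0.664% to 1.18%) were not. Which of these goes with the values was not tested.

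**Figure D4:**
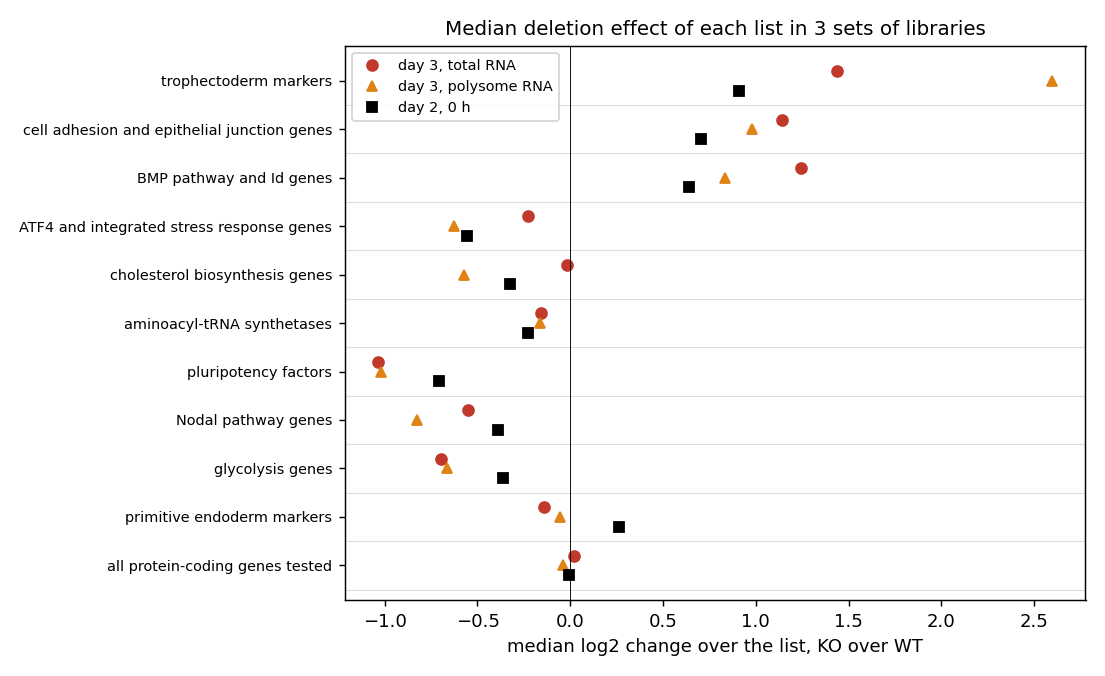
Median log2 change of KO over WT (horizontal axis) for 10 gene lists and for all genes, in day 3 total RNA (red circles), day 3 polysome RNA (orange triangles, a separate fit) and day 2 RNA (black squares). For trophectoderm markers both day 3 medians (1.44 and 2.59) lie above day 2 (0.91), whereas for cholesterol genes the total median (-0.02) lies above and the polysome median (-0.57) below day 2 (-0.32).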

How the data were processed

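The submitters' processing notes name STAR 2.3.0e, HTSeq and the mm9 build for the authors' steps. Each deposited file held a whole-number count for each of 37991 gene IDs, of which 20214 matched protein-coding genes of GENCODE M21 (GRCm38). Unassigned tallies stayed out of library sizes. The 8 libraries were fitted together in edgeR 4.0.16 (R 4.3.3), with TMM scaling, filterByExpr at a minimum count of 10, robust quasi-likelihood F-tests and Benjamini-Hochberg adjustment over 15844 genes. Changes are log2 values of the fit with SE, and levels are TMM-scaled CPM. The polysome fit used 14304 genes. On simulated data, 89% of planted log2 differences of 1 and 95% of those of 2 were recovered, and 10.24% of calls were false. That false share was above the adjusted p threshold of 0.05. Most called differences were smaller than 1, and recovery of such sizes was not tested.

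Named genes were Cnot3, the 10 highest and 10 lowest called differences (mean log2 CPM of at least 3, with day 3 changes all above or all below those of day 2), the 5 largest changes of direction each way, 3 genes per list by adjusted p, and Pou5f1, Sox2, Nanog, Cdx2, Gata3 and Eomes. For the extremes and the changes of direction, the rule left out Gm and Rik names and IDs without a symbol. The level criterion applied to both. A result under this rule is not reported here. Further list members are named to account for their list and were chosen after their values were seen. The comparison, the 28 lists and the rule were chosen with earlier results of these data known. Differences that did not overlap between days were found in 36.6% of all genes (18.2% above and 18.4% below). Alternatives were RLE scaling, library totals, DESeq2 1.42.0, other filters, all genes, no histone or mitochondrial mRNAs, a replicate block, a 12-library fit and each library left out. A library left alone in its group was assumed to vary like the others. The 8 libraries of actinomycin D at 4 and 8 h were not analysed here.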

Additional observations from a re-analysis of the deposited data

Results flagged for a closer look

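Each gene below passed the edgeR test of the difference between the day 3 and day 2 changes, and the value in brackets is that log2 difference (day 3 minus day 2). Every one of them lost its call in the fit of 12 libraries with the polysome ones, which called 0 genes. Of all 78 genes called under the naming rule, 52 kept the call with each of the 8 libraries left out in turn.

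Epithelial and related genes with a higher change on day 3 were Krt8 (1.31), Krt18 (1.16), Sfn (1.18), S100a6 (1.18), Col7a1 (1.01), Cldn6 (0.81) and Cldn4 (0.80). From BMP signalling and the immediate early and ERK feedback genes came Id3 (0.78), Id1 (0.46), Smad6 (0.54), Klf6 (0.85), Dusp1 (0.59), Klf10 (0.30) and Dusp5 (0.67). Amino acid, stress response and tRNA synthetase genes were Asns (0.78), Trib3 (0.71), Atf4 (0.57), Ddit3 (0.94), Pck2 (0.79), Slc1a4 (1.07), Aars (0.44), Cars (0.35) and Nars (0.25), and sterol genes were Insig1 (0.56) and Cyp51 (0.52). The remaining genes with a higher change were Gprc5a (1.76), Nrp2 (1.12), Arl4c (1.04), Eif3j1 (1.12), Fgf5 (1.91), Cnot3 (0.62), Ddx58 (0.50), Ccne2 (0.47) and Noct (0.30). Fgf5 was at most 0.930 CPM in these libraries, and its call was lost without 6 of the 8.

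Among genes with a lower change on day 3, those of Nodal signalling and pluripotency were Lefty1 (-1.20), Lefty2 (-1.25), Tdgf1 (-0.55), Sox2 (-0.56), Esrrb (-0.51) and Fgf4 (-0.44), and those of neighbouring lineages or FGF signalling were Otx2 (-0.57), Ncam1 (-0.37), Fgfr2 (-0.81), Etv5 (-0.51), Dusp6 (-0.31), Dab2 (-0.60), Amn (-1.01) and Pdgfra (-0.67). Glycolytic and mitochondrial genes were Ldha (-0.44), Pfkl (-0.45), Eno1 (-0.38) and Atp5j (-0.27). Genes of replication, ribosome production, mitosis and chromatin were Mcm10 (-0.28), Rrm2 (-0.30), Rrn3 (-0.28), Utp14a (-0.30), Fbl (-0.49), Rpl10l (-0.36), Aurkb (-0.24) and Hist1h1c (-0.89). From the p53 and interferon lists came Ei24 (-0.42), Plk2 (-0.25), Trp53inp1 (-0.22) and Irf1 (-0.70). Changes of direction toward a decrease were Nefh (-0.72), Itm2a (-0.73), Gas6 (-0.68), Ank2 (-0.61) and Grhl3 (-0.58). The other extremes were Aire (-1.03), A2m (-1.03), Enpp3 (-1.0), Rab3il1 (-0.98), Kirrel2 (-0.96), Camkv (-0.91), Pnkd (-0.89) and Snrpf (-1.12). Hist1h1c stood at 2.83 to 3.05 CPM in the day 2 libraries and 287 to 565 CPM in the day 3 total libraries, where its WT level was 188-fold higher. WT levels of Pdgfra and Fbl were 6.07-fold and 4.01-fold higher in the day 3 set.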

How the results depend on the processing

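The 78 genes called under the naming rule kept their direction in each alternative run, but the number called moved. The main counts of 413 higher and 604 lower became 1083 and 315 by library totals (median difference 0.08, with day 3 and day 2 medians of 0.31 and 0.17), 182 and 351 by DESeq2, and 0 and 0 in the 12-library fit (926 at an unadjusted p under 0.05). With 1 library left out they ran from 189 to 387 higher and from 245 to 1179 lower, the last without day 3 WT replicate 2. The day 3 change (5015 and 5366) became 8557 and 2558 by library totals and 3252 and 3364 in the 12-library fit. For the day 2 change, 5003 lower genes became 2867 by library totals and 2283 in the 12-library fit. Lower genes in polysomes (3221) became 1799 by library totals. With 1 library left out, polysome calls ran from 1647 to 4107 higher and from 1948 to 4886 lower. Polysome minus day 2 (0 and 0) gave 58 and 99 by DESeq2, 1 and 2 with no filter, 1 lower by RLE scaling and 1 lower with the replicate block, and 0 to 1912 higher and 0 to 3276 lower with 1 library left out. Directions reversed only for uncalled genes. Nanog became 0.095 by library totals, 0.022 with a filter of 1 CPM and 0.032 with all genes fitted, and ran from -0.052 to 0.022 with 1 library left out. Eomes became 0.062 by library totals and ran from -0.32 to 0.30, and Gata3 ran from -0.58 to 0.17, with 1 library left out. The cause was not tested. The replicate block gave 436 higher and 663 lower genes. Replicate differences of same-numbered libraries correlated at 0.340 between day 3 KO and WT and at -0.114 to 0.108 elsewhere, so the numbers were not taken as pairs. With 2 libraries a group, all p-values rest on the spread between few samples.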

Other observations

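In the 2-cell and mesoderm lists, many genes rose on each day and none passed in the difference between days. Of 14 genes of the 2-cell stage, 13 rose on day 3 and 8 on day 2, against 31.7% and 26.4% of all genes, with median log2 changes of 1.28 and 1.30. By edgeR 0 of them were called in the difference between days, against 1 at an unadjusted p under 0.05 and 0 by DESeq2. The median difference of 0.08 ran from -0.22 to 0.35 with 1 library left out. The 2-cell list summed to 366 and 375 CPM in day 3 KO and 129.4 and 129.2 CPM in day 3 WT. On day 2 the sums were 17.0 and 15.3 CPM in KO and 5.41 and 7.27 CPM in WT. At such low day 2 levels, the lack of calls does not show an equal response on both days. Of 13 mesoderm and primitive streak markers tested (15 listed), 10 rose on day 3 and 7 on day 2 (31.7% and 26.4% of all genes). The edgeR test of the difference called 0 of these, against 5 at an unadjusted p under 0.05 and 0 by DESeq2. Among 23 p53 targets, 14 rose and 5 fell on day 3, and 16 rose and 3 fell on day 2. Over all genes, 31.7% rose and 33.9% fell on day 3, and 26.4% rose and 31.6% fell on day 2. The p53 regulator gene Mdm2 rose by 1.16 and 1.18 on day 3 and day 2, and Btg2 by 1.73 and 1.76. Their differences between days (-0.02 and -0.03) did not pass. In the difference between days, 1 p53 target was higher and 4 were lower, 2 and 1 by library totals, and 1 was lower with a filter of 1 CPM, with all genes fitted, or when day 3 KO replicate 2 or any 1 day 2 library was left out. Plk2, a polo-like kinase gene induced by p53, rose by 1.73 on day 3 and 1.98 on day 2.

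Ribosomal protein and oxidative phosphorylation genes turned on 1 library. Of 81 ribosomal protein genes, 78 fell on day 3 and 46 on day 2, and 1 was called lower in the difference between days (median -0.17). The shares over all genes were 33.9%, 31.6% and 3.81%. Without day 3 WT replicate 2, 47 were called lower. Of 83 nuclear-encoded oxidative phosphorylation genes tested, 65 fell on day 3 and 37 on day 2, and 1 was called lower (median -0.16), again against 47 without day 3 WT replicate 2. The summed level of ribosomal protein transcripts was 62360 and 55920 CPM in day 3 KO and 100300 and 81810 CPM in day 3 WT, against 16430 and 16230 CPM in day 2 KO and 22560 and 22440 CPM in day 2 WT. Day 3 WT replicate 2 was thus below its partner, and the sets differed several-fold. Whether the counting of reads aligned to several places bears on this was not tested.

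Histone transcripts could not be compared between days. Replication-dependent histone transcripts summed to 6923 and 6461 CPM in day 3 KO and 14540 and 10780 CPM in day 3 WT, against 15.3 and 16.4 CPM in day 2 KO and 18.4 and 18.7 CPM in day 2 WT. Of 48 tested, 39 fell on day 3, and 1 was called lower in the difference between days (33.9% and 3.81% over all genes). The fibroblast list summed to 558 and 600 CPM in day 3 KO and 835 and 862 CPM in day 3 WT, against 1068 and 1033 CPM in day 2 KO and 2082 and 1951 CPM in day 2 WT. Of 14 members tested (16 listed), 10 rose and 1 fell on day 3 (median log2 change 0.64), and 6 rose and 1 fell on day 2 (median 0.43). Shares over all genes were 31.7% risen and 33.9% fallen on day 3, and 26.4% and 31.6% on day 2. The member that fell was Fn1, fibronectin, by 1.63 on day 3 and 1.25 on day 2 on the log2 scale.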
